A study of Mus musculus with 6 samples.

Results

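The 8 genes described here encode the kinase module that many innate immune receptors use to switch on type I interferon, and the double-stranded RNA receptor arm that feeds it. They are the kinases Tbk1 and Ikbke, the adaptors Traf3 and Traf6, the kinase scaffolds Tank and Azi2, the receptor Tlr3 and its adaptor Ticam1. They were chosen by gene name, each matched 1 row of the 55573 in the deposited table, and all 8 passed the filter on low counts that left 14842 genes. Bulk RNA-seq was done on Hepa1-6, a cell line from a mouse liver tumour, in 6 libraries. Of these, 3 were labelled as Matr3 knockout (KO), made with CRISPR/Cas9, and 3 as wild type (WT). Both groups were grown in the same medium, and the labels name no infection, RNA ligand or interferon treatment for either. The labels name no culture or clone for any library, so it is not known how independent the replicates are. A p-value here therefore covers the spread among these libraries alone, and that spread may be technical.

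As background, TBK1 and its relative IKK-epsilon phosphorylate the transcription factors IRF3 and IRF7, which then drive interferon and early antiviral genes. RIG-I-like receptors reach TBK1 through MAVS, cytosolic DNA through cGAS and STING, and TLR3 through the adaptor TRIF, the product of Ticam1. TRAF3 and TRAF6 are ubiquitin ligases that couple these adaptors to TBK1 and to the canonical NF-kB kinases. TANK and NAP1, the product of Azi2, are scaffolds that bind the TBK1 dimer. Much of this module is controlled by phosphorylation and ubiquitin, which RNA counts do not measure. The series title places a type I interferon response under the RNA-binding protein MATR3, and the comparison here asks how the transcripts of this module stood in the knockout.

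Library totals ran from 20736570 to 30794032 counts. Matr3 itself, the targeted gene, was at 76.0, 86.1 and 75.3 CPM (counts scaled to library depth by TMM) in KO libraries 1 to 3 and at 129, 125 and 134 CPM in WT libraries 1 to 3, a log2 fold change of -0.71 (adjusted p = 0.00270 by the edgeR quasi-likelihood test). Across genes, the deviation of a library from the mean of all 6 correlated with GC content at 0.26, -0.27 and 0.26 in KO libraries 1 to 3 and at -0.03, -0.03 and -0.16 in WT libraries 1 to 3 (14666 genes, which are not independent). KO library 2 thus stood apart from the other KO libraries in this respect. WT library 1, the shallowest, listed 23440 genes with at least 1 count, against 20450 to 21217 in each of the other 5 libraries. Of 9 markers of hepatoma cells only Krt8, Krt18 and Afp passed the filter; Ttr was at 0 in every library, and Alb, Apoa1 and Hnf4a had at most 1 count in any. The markers summed to 572 to 606 FPKM in KO and 326 to 390 FPKM in WT libraries, nearly all of it keratin, and Krt8 (0.88) and Krt18 (0.39) rose on the log2 scale. Afp pointed the other way, at 2.79 ± 0.715 CPM in KO and 4.81 ± 0.247 CPM in WT cells (SD, n = 3 each), groups that did not overlap, with a log2 fold change of -0.79 that did not pass (edgeR adjusted p = 0.0505). Of 9 markers of leukocytes, endothelium and fibroblasts, Adgre1 and Cd3e were at 0 and Ptprc had at most 3 counts. The leukocyte marker Cd68 was present in every library, at 11.1 ± 1.41 FPKM in KO and 8.71 ± 0.635 FPKM in WT cells (SD, n = 3 each). The list summed to 13 to 16.6 FPKM in KO and 10.9 to 12.3 FPKM in WT libraries, most of it Cd68. Of the 5 tested markers in this list 1 rose, Col1a1 (0.81, edgeR adjusted p = 0.0198), and 1 fell, Cdh5 (-2.27, 0.00413). The other 3 did not pass, Cd68 (0.34, 0.124) among them. The part of either shift, or of the number of genes detected, in the results was not tested. In bulk RNA, a change in the share of cells that express a gene and a change in RNA per cell cannot be told apart.

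None of the 8 genes passed the test, and the limit that the data set on a change differed between them. At an adjusted p under 0.05, 0 of 8 were called by edgeR, against 15.2% of all tested genes. At an unadjusted p under 0.05, 2 of 8 were lower and 0 higher, against 31.0% of tested genes in either direction. DESeq2 called 1 of the 8, Tank, against 2912 of the 14842 tested genes. Limma called 0 of the 8, against 2230 tested genes with voom weights and 1852 on log2(FPKM + 1). The 2 scaffold genes, Tank and Azi2, were the only members whose groups did not overlap, both lower in the knockout, against 18.4% of tested genes lower and 18.3% higher without overlap (36.6% in all). The median log2 fold change of the 8 was -0.03, against -0.02 over all tested genes, and the median size was 0.20 against 0.25. For 6 of the 8 the 95% interval of the fold change lay inside 1.5-fold in both directions, as it did for 46.0% of all tested genes. The exceptions were Ikbke and Tlr3, the 2 genes with the fewest counts. This bound, 0.585 on the log2 scale, is close to the median size of a called change, 0.62. Of the 6, Tank (0.672 to 0.927-fold) and Azi2 (0.687 to 0.962-fold) had intervals that lay wholly below no change.

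**Figure D1:**
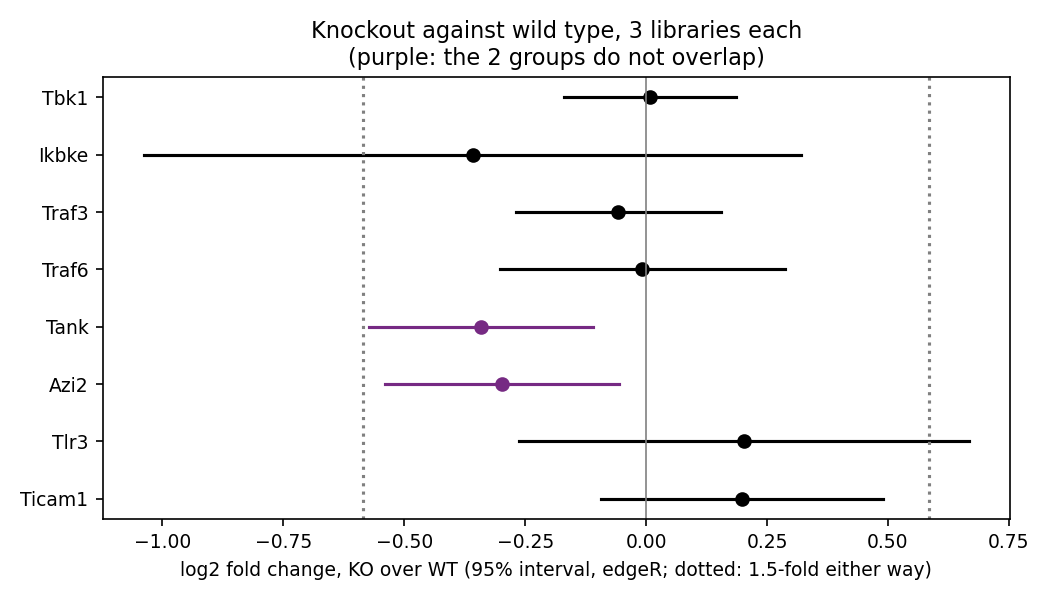
Log2 fold change of each gene, KO over WT (x axis), with its 95% interval from the edgeR fit (bars) and dotted lines at 1.5-fold either way. Tank and Azi2, in purple, have intervals that lie below 0 yet did not pass after adjustment; the interval of Tbk1 is the narrowest and that of Ikbke the widest.

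Levels are compared between genes in FPKM, the authors' fragment counts scaled to gene length and library depth. Over the 6 libraries Ticam1 averaged 15.9 FPKM and Tbk1 15.0, followed by Azi2 at 7.02, Traf6 at 6.77, Tank at 4.70, Traf3 at 4.13, Tlr3 at 1.53 and Ikbke at 1.23. The median tested gene averaged 5.68 FPKM, so that 74.5% of tested genes lay below Ticam1, 73.2% below Tbk1, 25.5% below Tlr3 and 22.7% below Ikbke. Within both groups the libraries of Ticam1 and Tbk1 overlapped. Azi2 and Traf6 overlapped in the KO libraries and not in the WT libraries, as did Tank and Traf3, whereas Tlr3 and Ikbke overlapped in the WT libraries and not in the KO libraries.

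**Figure D2:**
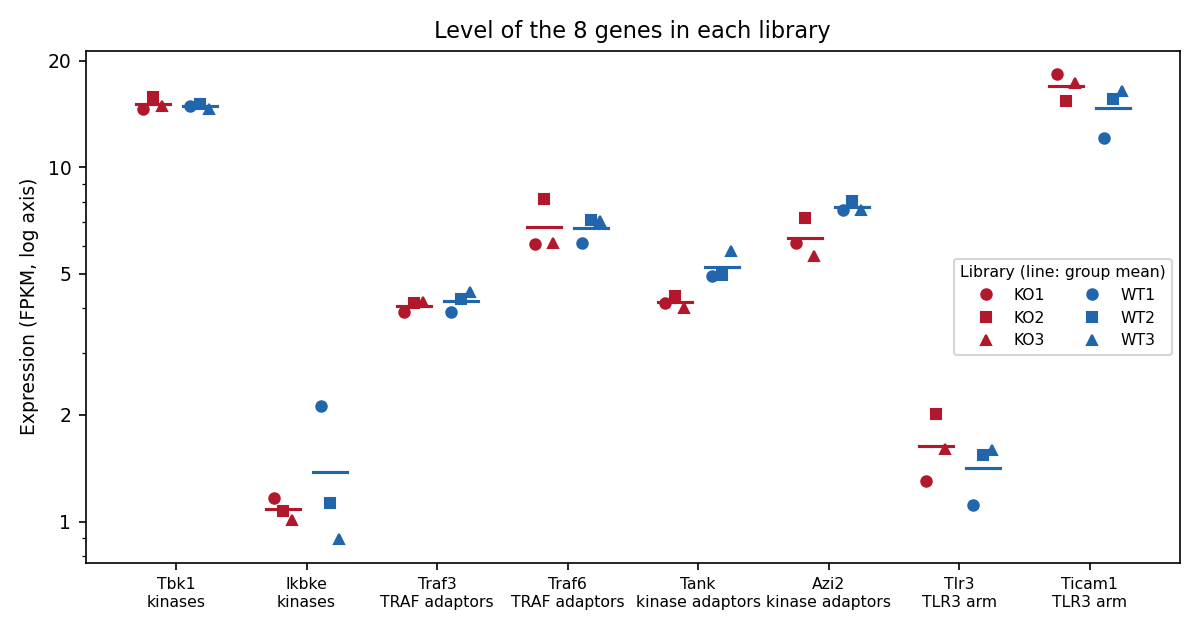
FPKM of the 8 genes (log axis) in each KO library (red, left of each pair) and WT library (blue, right); symbols mark the library number and lines the group mean. Tbk1 varies least between libraries, WT library 1 is the high point of Ikbke, and KO and WT points separate only at Tank and Azi2.

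Promoter windows of the members were taken from RefSeq, in the build GRCm38.p6, whose coordinates differ from those of the deposited table. All 8 members matched, with 11 windows of 300 bases, from 250 before to 50 after an annotated start. No window held the core of the interferon-stimulated response element (GAAA, then any 2 bases, then GAAA; both strands searched), which 3.44% of 32851 windows in the table held. An NF-kB pattern (GGGA, any base, TTTCC) was in 1 window, that of Tlr3, and in 0.411% of all windows. A wider pattern that contains it (GGG, any 2 bases, TTTCC), chosen after the promoters were seen, was in windows of Tank, Tlr3 and Traf3 and in 1.63% of all windows. Shown are the windows of the 2 genes whose groups did not overlap, Tank and Azi2, and of Tlr3, the member with the narrower match; capitals mark a match to an NF-kB pattern. The windows lie at chr2:61592847-61593146 (plus strand), 1 of 4 windows of Tank, at chr9:118040272-118040571 (plus strand) and at chr8:45410331-45410630 (minus strand).
Tank: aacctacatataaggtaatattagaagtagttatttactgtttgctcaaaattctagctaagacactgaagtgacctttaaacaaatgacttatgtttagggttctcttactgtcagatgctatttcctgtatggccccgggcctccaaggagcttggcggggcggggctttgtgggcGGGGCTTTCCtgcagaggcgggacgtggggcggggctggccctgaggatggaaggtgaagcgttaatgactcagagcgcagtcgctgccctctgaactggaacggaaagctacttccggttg
Azi2: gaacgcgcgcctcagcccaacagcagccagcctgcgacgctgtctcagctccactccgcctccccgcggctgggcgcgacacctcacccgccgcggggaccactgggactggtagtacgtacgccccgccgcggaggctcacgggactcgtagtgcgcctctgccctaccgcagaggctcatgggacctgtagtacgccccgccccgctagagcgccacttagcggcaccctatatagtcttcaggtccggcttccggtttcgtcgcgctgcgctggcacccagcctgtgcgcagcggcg
Tlr3: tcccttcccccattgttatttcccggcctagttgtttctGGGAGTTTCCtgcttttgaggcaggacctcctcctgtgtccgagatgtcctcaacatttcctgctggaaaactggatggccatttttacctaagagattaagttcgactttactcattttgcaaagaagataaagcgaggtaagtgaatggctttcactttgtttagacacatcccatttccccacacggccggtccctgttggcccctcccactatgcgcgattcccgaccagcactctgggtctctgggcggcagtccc
The match begins 72 bases before the start in the window of Tank shown and 211 bases before it in that of Tlr3, and the window of Azi2 has none. The Tank window at chr2:61592902-61593201 holds the same match. Those at chr2:61578307-61578606 and chr2:61578336-61578635 hold none, and lie around 61578585, where GENCODE M21 has the start of Tank. The window of Tlr3 does not reach 45411080, where GENCODE M21 has the start of that gene. In that annotation the Tlr3 match lies inside the gene. A match is a description of letters, and says nothing about binding in these cells.

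Tbk1, the kinase that most of these routes converge on, was the steadiest transcript of the set. Tbk1 (ENSMUSG00000020115; chromosome 10, 121382360 to 121422692, minus strand) was at 57.4, 61.2 and 58.1 CPM in KO libraries 1 to 3 and at 59.4, 59.1 and 57.3 CPM in WT libraries 1 to 3. All 6 libraries lay within a few CPM of each other, and the groups overlapped. The means were 58.9 ± 2.01 CPM in KO and 58.6 ± 1.12 CPM in WT cells (SD, n = 3 each). The log2 fold change was 0.0081 (SE 0.0779, adjusted p = 0.954 by the edgeR quasi-likelihood test). The 95% interval ran from 0.889 to 1.14-fold, and a change inside that range is not excluded by these libraries.

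Ikbke encodes IKK-epsilon, the second kinase of the module, which in many cells is made in low amounts until NF-kB or interferon induces it. Ikbke (ENSMUSG00000042349; chromosome 1, 131182080 to 131207344, minus strand) had 246, 300 and 259 counts in KO libraries 1 to 3 and 417, 272 and 211 counts in WT libraries 1 to 3. In CPM the KO libraries were at 10.6, 9.57 and 9.11 and the WT libraries at 19.5, 10.2 and 8.03. WT library 1 was far above the other 5, KO library 1 lay just above WT library 2, and KO libraries 2 and 3 lay between WT libraries 2 and 3. The log2 fold change was -0.36 (SE 0.296, adjusted p = 0.448 by the edgeR quasi-likelihood test), with an interval from 0.487 to 1.25-fold. Without WT library 1 it was 0.12 (adjusted p = 0.659), so 1 library set its sign. On the log2 scale WT library 1 stood 1.10 above the mean of WT libraries 2 and 3. With its sign kept, this difference was lower for 94.3% of tested genes, those with a negative difference included. The ratio of Ikbke to Tbk1 in FPKM was 0.0800, 0.0678 and 0.0680 in the KO libraries and 0.142, 0.0747 and 0.0607 in the WT libraries.

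Neither TRAF adaptor showed a difference between the groups beyond the spread of the libraries. Traf3, which carries TBK1 to MAVS and TRIF and also restrains the noncanonical NF-kB route, was at 28.8, 30.2 and 30.7 CPM in KO libraries 1 to 3 and at 29.2, 31.3 and 32.7 CPM in WT libraries 1 to 3. The groups overlapped, with a log2 fold change of -0.06 (SE 0.0926, adjusted p = 0.709 by the edgeR quasi-likelihood test) and an interval from 0.829 to 1.11-fold. Traf3 (ENSMUSG00000021277) lies on chromosome 12 from 111132804 to 111233587 on the plus strand. Traf6, whose product builds the ubiquitin chains that recruit the TAK1 kinase complex, was at 48.1, 63.7 and 48.1 CPM in the KO libraries and at 49.2, 56.0 and 55.7 CPM in the WT libraries. KO library 2 was the highest of the 6, and KO libraries 1 and 3 the lowest. Traf6 (ENSMUSG00000027164; chromosome 2, 101508774 to 101532014, plus strand) had a log2 fold change of -0.0081 (SE 0.129, adjusted p = 0.972 by the edgeR quasi-likelihood test), whose sign turned with library totals alone, with other filters and with the GC trend removed. Without KO library 2 it was -0.15 (adjusted p = 0.217), and without KO library 2 and WT library 1 it was -0.22 (adjusted p = 0.00850). These are the highest KO and the lowest WT library of Traf6. Leaving both out therefore widens the difference, and that fit called 7556 of 14825 tested genes.

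Both kinase scaffolds were lower in every KO library than in any WT library, at 0.789 and 0.813 times the WT level in the fit, yet neither passed after adjustment. Tank, a scaffold that binds TBK1, IKK-epsilon and TRAF3 and in mice restrains Toll-like receptor signalling, was at 25.4, 26.3 and 24.4 CPM in KO libraries 1 to 3 and at 30.6, 30.4 and 35.3 CPM in WT libraries 1 to 3. The means were 25.3 ± 0.945 CPM in KO and 32.1 ± 2.80 CPM in WT cells (SD, n = 3 each). Tank (ENSMUSG00000064289; chromosome 2, 61408929 to 61484515, plus strand) had a log2 fold change of -0.34 (SE 0.101, unadjusted p = 0.00930, adjusted p = 0.0562 by the edgeR quasi-likelihood test). Azi2, whose product NAP1 links TBK1 to its upstream adaptors, was at 39.6, 46.1 and 36.3 CPM in the KO libraries and at 49.7, 51.7 and 48.7 CPM in the WT libraries. In FPKM its means were 6.32 ± 0.803 in KO and 7.71 ± 0.265 in WT cells (SD, n = 3 each), and KO library 2 lay nearest to the WT libraries. Azi2 (ENSMUSG00000039285; chromosome 9, 117869567 to 117898862, plus strand) had a log2 fold change of -0.30 (SE 0.106, unadjusted p = 0.0217, adjusted p = 0.0952 by the edgeR quasi-likelihood test). In the authors' deposited table, too, neither passed: Tank stood at -0.31 (adjusted p = 0.0905) and Azi2 at -0.27 (adjusted p = 0.149).

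For both scaffolds the call turned on which libraries entered the fit. Without KO library 2 both passed, Tank at -0.36 (adjusted p = 0.0304 by the edgeR quasi-likelihood test) and Azi2 at -0.40 (0.00950). That fit without KO library 2 called 4295 of 15286 tested genes. Tank also passed with DESeq2 (adjusted p = 0.0453). With the trend of each library with GC content removed, Tank was at -0.15 (adjusted p = 0.391) and Azi2 at -0.19 (0.178). That fit also removes any difference between KO and WT that goes with GC content, and Matr3 itself moved from -0.71 to -0.53 in it. Which part of the shift of Tank and Azi2 this makes up was not tested. The ratio of Azi2 to Tank in FPKM was 1.48, 1.66 and 1.41 in the KO libraries and 1.54, 1.61 and 1.30 in the WT libraries, so the groups overlapped in this ratio (exact two-sided permutation p = 0.9, where 3 against 3 libraries cannot go below 0.1). Set against Tbk1, a ratio chosen after the values were seen and not tested, Tank was at 0.284, 0.275 and 0.269 in the KO libraries and at 0.331, 0.330 and 0.396 in the WT libraries. Cmc1, a gene on the opposite strand, overlaps Azi2 in the table and had 368, 566 and 511 counts in the KO libraries and 325, 429 and 471 in the WT libraries. Because strandedness is not stated, reads of Azi2 and Cmc1 in the shared stretch cannot be told apart.

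The TLR3 arm was somewhat higher in the knockout on average, within the spread of the libraries. Tlr3, the endosomal receptor of double-stranded RNA, had 158, 327 and 237 counts in KO libraries 1 to 3 and 127, 214 and 218 counts in WT libraries 1 to 3. In CPM these were 6.80, 10.4 and 8.34 in the KO libraries and 5.93, 8.01 and 8.29 in the WT libraries, so that the high end came from KO library 2 and the low end from WT library 1. Tlr3 (ENSMUSG00000031639; chromosome 8, 45848702 to 45864117, minus strand) had a log2 fold change of 0.20 (SE 0.203, adjusted p = 0.535 by the edgeR quasi-likelihood test), with an interval from 0.834 to 1.59-fold. The value was 0.03 without KO library 2 and 0.34 with the GC trend removed. Ticam1, which encodes the sole adaptor of TLR3, was at 55.1, 45.8 and 51.7 CPM in KO libraries 1 to 3 and at 37.0, 46.8 and 49.1 CPM in WT libraries 1 to 3. KO libraries 1 and 3 were the highest of the 6, and KO library 2 lay below WT libraries 2 and 3. Ticam1 (ENSMUSG00000047123; chromosome 17, 56576319 to 56583786, minus strand) had a log2 fold change of 0.20 (SE 0.127, adjusted p = 0.330 by the edgeR quasi-likelihood test) and an interval from 0.937 to 1.40-fold. Without WT library 1 it was 0.10 (adjusted p = 0.546). The ratio of Tlr3 to Ticam1 in FPKM spread widely over the KO libraries, at 0.0709, 0.131 and 0.0926, and little over the WT libraries, at 0.0920, 0.0984 and 0.0970.

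Of the 4 member pairs compared within a library (Ikbke to Tbk1, Traf3 to Traf6, Azi2 to Tank and Tlr3 to Ticam1), each overlapped between the groups, with log2 differences of -0.27, -0.04, 0.03 and -0.01. The exact two-sided permutation p-values were 0.8, 1, 0.9 and 1, and all were 1 after Benjamini-Hochberg adjustment over the 4 pairs. These ratios do not depend on how libraries are scaled.

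KO library 2 differed from KO libraries 1 and 3 at some members, in a way that followed their base composition only in part. The GC content of the longest annotated transcript was 38.4% for Tank, 40.0% for Tlr3, 42.9% for Azi2, 45.4% for Tbk1, 45.7% for Traf6, 50.3% for Ikbke, 52.9% for Traf3 and 56.4% for Ticam1, against a median of 49.6% over tested genes. In KO library 2 relative to the mean of KO libraries 1 and 3, log2 CPM was 0.47 higher for Tlr3, 0.41 for Traf6 and 0.28 for Azi2, whereas Ticam1 differed by -0.22. Traf3, Tank, Tbk1 and Ikbke lay between -0.04 and 0.08, although Tank had the lowest GC content of the 8. Tbk1 (0.08) and Traf6 (0.41) differed in this value at nearly the same GC content. Over the 8 members this difference had a Pearson r of -0.71 with GC content, and over 14666 tested genes one of -0.42. Both are descriptions of the same 3 libraries across genes, which are not independent. The part of this trend in the members' values was not tested beyond the fit with the trend removed.

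**Figure D3:**
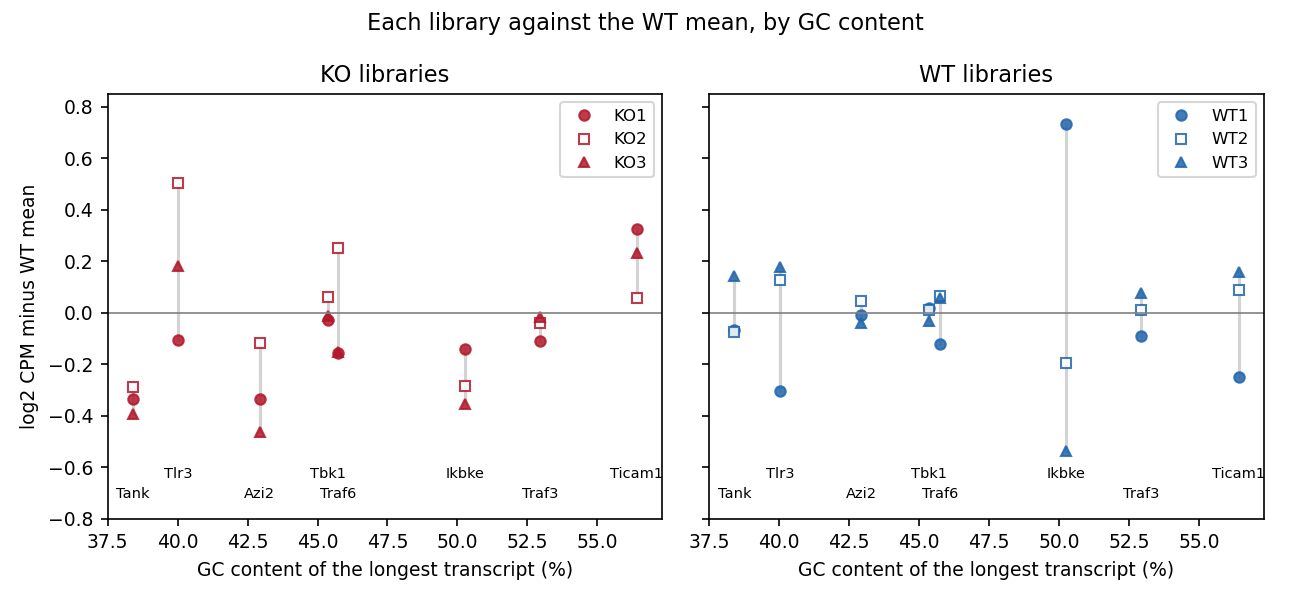
Log2 CPM of each member minus its WT mean (y axis) in the 3 KO libraries (left) and the 3 WT libraries (right), by GC content of its longest transcript (x axis); vertical lines span the libraries of a group. KO library 2 is the top point at Tlr3, Traf6 and Azi2 and the lowest at Ticam1, and WT library 1 is the outlying WT point at Ikbke.

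Around the 8 genes, the pathway held calls mainly among interferon-induced genes and regulators, and, with all 6 libraries, none in the canonical kinase complexes. In 5 lists of 61 genes in all, 54 were tested, of which 11 rose, 2 fell and 41 did not pass; that is 24.1% called, against 15.2% of all tested genes (7.69% higher and 7.48% lower). The median log2 fold change of the 54 was 0.07. The lists were chosen with earlier results of these data known, so their share of calls is a description and no test of enrichment. Of the 11 genes that rose, 5 were in the list of the IRF3 axis. With no filter on low counts, with the replicate number as a block, or without KO library 1, KO library 3, WT library 2 or WT library 3, no listed gene was called lower.

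Upstream of TBK1, 1 of 8 tested genes rose and 7 did not pass (list median 0.17). The called gene was Ifih1, which encodes the RNA sensor MDA5, at 12.6 ± 1.25 CPM in KO and 6.95 ± 0.189 CPM in WT cells (SD, n = 3 each; log2 fold change 0.86, adjusted p = 0.00487 by the edgeR quasi-likelihood test). Sting1 (0.18), Mavs (0.21) and Ddx58, which encodes RIG-I (0.17), did not pass, at adjusted p-values of 0.197, 0.117 and 0.588. Ticam2, the bridging adaptor that joins TLR4 to TRIF, had 1 count in all 6 libraries together, and Unc93b1, the chaperone that carries TLR3 to endosomes, had at most 6 counts in any library. Tlr4 itself was tested, at 41.0 ± 7.88 CPM in KO and 36.8 ± 1.26 CPM in WT cells (0.15, adjusted p = 0.481; added with its value known).

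Among the other TRAF proteins and TRAF-linked ubiquitin enzymes, 1 of 12 rose, 2 fell and 9 did not pass (list median 0.04). Traf2, which couples TNF receptors to NF-kB, was at 49.0 ± 2.16 CPM in KO and 31.5 ± 2.69 CPM in WT cells (SD, n = 3 each; log2 fold change 0.64, adjusted p = 0.00501 by the edgeR quasi-likelihood test). Traf4 fell by 0.41 on the log2 scale (0.0282) and Ube2n, the ubiquitin-conjugating enzyme that works with TRAF6, by 0.40 (0.0429). The call of Traf4 ended without any 1 library other than KO library 2, and that of Ube2n without KO library 1 or 3 or WT library 2 or 3, at adjusted p-values between 0.0529 and 0.209. Both calls also ended with no filter on low counts and with the replicate block, and that of Ube2n with limma on log2(FPKM + 1) (0.0735) and with the GC trend removed (-0.26, 0.112). Traf7 (0.018), Tradd (0.06) and Ripk1 (-0.13) did not pass.

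Among other TBK1 adaptors and regulators, 4 of 15 rose and 11 did not pass (list median 0.03). Optn, the ubiquitin-binding adaptor that recruits TBK1 to damaged mitochondria and to ubiquitinated cargo, was at 22.6 ± 2.45 CPM in KO and 15.5 ± 0.642 CPM in WT cells (SD, n = 3 each; log2 fold change 0.55, adjusted p = 0.0174 by the edgeR quasi-likelihood test). Mib2, a ubiquitin ligase, rose by 0.78 (0.0236), Cyld, a deubiquitinase that trims TRAF-built chains, by 0.39 (0.0275) and the deubiquitinase Otub2 by 0.37 (0.0342). Each of these 4 calls ended without KO library 3, WT library 2 or WT library 3, at adjusted p-values from 0.0632 to 0.129; those of Mib2, Cyld and Otub2 also ended without KO library 1, and that of Cyld without WT library 1 (0.0541). With the replicate block the calls of Cyld (0.0520) and Otub2 (0.0947) ended, as did that of Cyld with limma on log2(FPKM + 1) (0.0631) and that of Otub2 with no filter on low counts (0.0685). Tbkbp1, which encodes SINTBAD, the third scaffold of the TANK and NAP1 family, had a log2 fold change of -0.025 (SE 0.238, adjusted p = 0.953), with KO libraries that spread over 107 ± 36.3 CPM, against 109 ± 11.9 CPM in WT cells. Its sign turned without KO library 2, to 0.24 (adjusted p = 0.104). Otub1 (0.03) and Ppp4c (0.16) did not pass.

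In the canonical kinase complexes, 0 of 11 tested genes passed by edgeR, DESeq2, limma voom or limma on log2(FPKM + 1), with a list median of -0.06. At an unadjusted edgeR p under 0.05, 2 were higher and 1 lower. The most abundant, Tab2 (-0.11), Irak1 (-0.23) and the TAK1 kinase gene Map3k7 (-0.0068, whose sign turned with library totals alone), had adjusted p-values of 0.552, 0.0875 and 0.972. Without KO library 2 and WT library 1, these 3 passed by edgeR, Tab2 at -0.28 (adjusted p = 0.000381), Irak1 at -0.24 (0.00230) and Map3k7 at -0.15 (0.0206). That fit without both libraries called 7556 of 14825 tested genes. For Tab2 and Map3k7 the libraries left out are the highest KO and the lowest WT library, so leaving both out widens the difference. The IKK subunit genes Chuk (-0.11), Ikbkb (-0.06) and Ikbkg (0.06), named after their values were seen, likewise did not pass.

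Downstream of the kinases, 5 of 8 tested genes of the IRF3 axis rose and 3 did not pass (list median 0.93), while Irf3 itself was among those that did not pass. Irf3, the main substrate of TBK1, was at 43.8 ± 2.61 CPM in KO and 43.4 ± 9.47 CPM in WT cells (SD, n = 3 each; log2 fold change 0.012, SE 0.149, adjusted p = 0.964 by the edgeR quasi-likelihood test). Without KO library 2 and WT library 1, its lowest KO and highest WT library, it was at 0.25 (adjusted p = 0.00884). That fit called 7556 of 14825 tested genes. Isg15, a ubiquitin-like antiviral protein, was at 16.8 ± 2.19 CPM in KO and 6.28 ± 0.449 CPM in WT cells (1.42, adjusted p = 0.00103) and Irf7, an interferon-induced substrate of the same kinases, at 4.79 ± 0.853 CPM in KO and 1.93 ± 0.281 CPM in WT cells (1.31, 0.00825). Rsad2, the antiviral enzyme viperin, rose by 1.19 (0.0152), Oasl1 by 1.08 (0.0134) and Cxcl10, added with its value known, by 0.78 (0.0231). The calls of Rsad2 and Oasl1 ended without KO library 3, at adjusted p-values of 0.0510 and 0.0512, and that of Rsad2 also without WT library 2 (0.0652). Ccl5 (0.26) and Ifit2 (-0.17) did not pass. Ifnb1 and Ifna4 had 0 counts in all 6 libraries, and Ifit1 and Ifit3 had at most 5 in any.

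**Figure D4:**
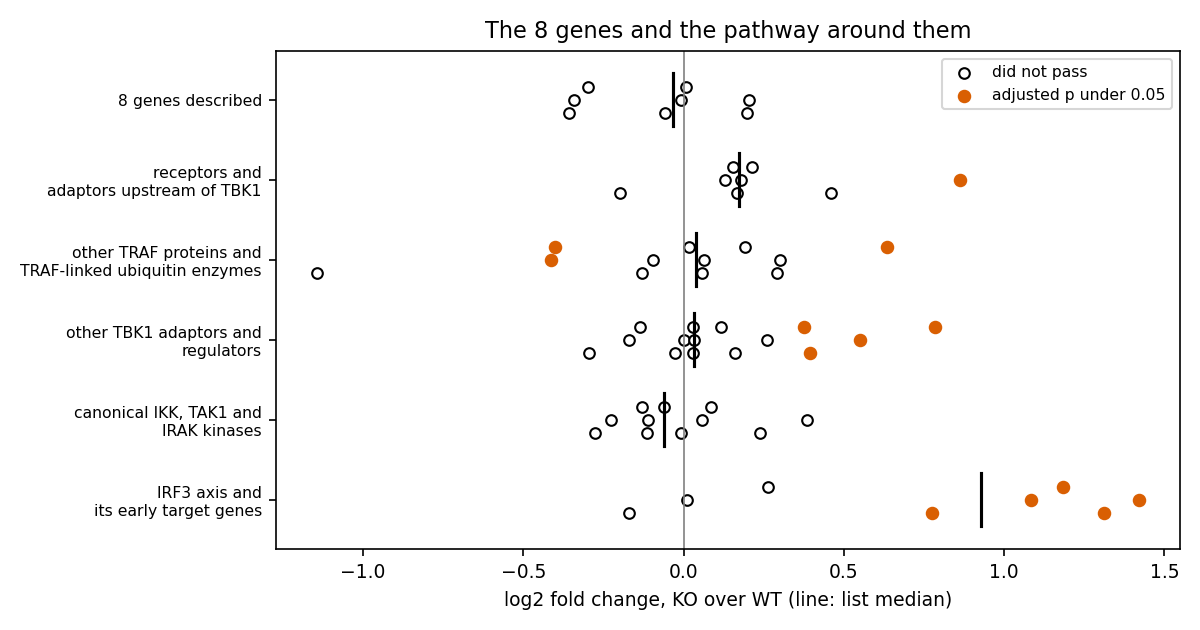
Log2 fold change, KO over WT (x axis), of the 8 genes (top row) and of the tested genes of 5 surrounding lists; filled points passed at an adjusted p under 0.05, open points did not, and lines mark list medians. The 8 genes and the canonical kinases lie around 0 without a call, and 5 of 8 genes of the IRF3 axis lie at 0.78 or above.

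Genomic neighbours of the members were read in the order of the deposited table. Of the 80 tested genes that lie within 5 places of a member on either side, 13 passed, 16.3%, close to the 15.2% of all tested genes, with 5 higher and 8 lower. Next to Traf6 on chromosome 2, Prr5l (-1.04), Ldlrad3 (-0.93) and Fjx1 (-1.64) fell, whereas Traf6 had a log2 fold change of -0.0081. Near Tank, Baz2b (-0.70) and Marchf7 (-0.47) fell and Ifih1 rose, and the nearest gene on either side, Rbms1 (-0.24) and Psmd14 (-0.36), did not pass. All 10 neighbours of Traf3 and all 10 of Azi2 did not pass.

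The genes whose log2 CPM followed each member most closely over the 6 libraries were found by Pearson r, as a description with no test. Rb1 and Zfp580 were most like Tbk1 (0.99 and 0.98), H2-K2 and Xkr6 most like Ikbke (0.99 and 0.98), and Med30 and Mrpl17 most like Traf3 (0.99 and 0.98). Traf6 was followed by Pmpcb and Kif2a (both above 0.99, at 0.998 and 0.997), Tlr3 by Bivm and Arel1 (both 0.99), and Ticam1 by Arsb and Gpalpp1 (both 0.98). Tank was followed by Baalc and Utp15 (both 0.99), both of which passed the test, at -0.72 and -0.46, and Azi2 by Zfp60 and Cables2 (both 0.99). With 6 libraries such values are common: Traf6 had 153 and Azi2 112 genes above 0.95, against 5 for Tbk1. Among the members themselves, the highest r was that of Tank with Azi2 (0.80) and the lowest that of Ikbke with Ticam1 (-0.80).

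**Figure D5:**
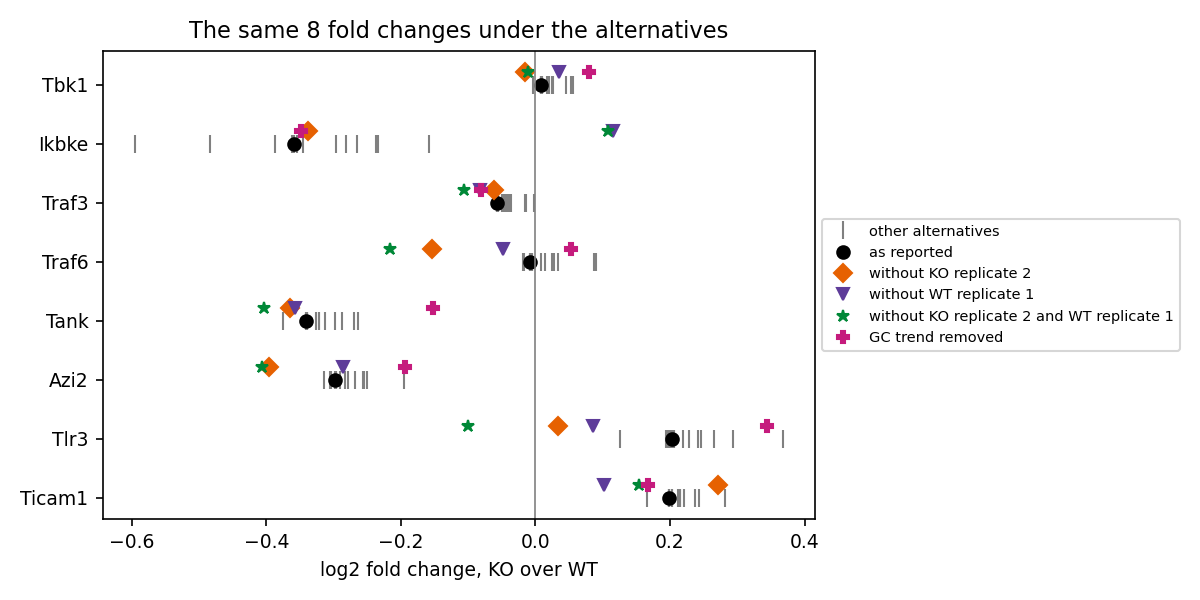
Log2 fold change, KO over WT (x axis), of each member as reported (black) and under the alternatives, of which leaving out KO library 2, WT library 1 or both, and removing the GC trend, are marked. Ikbke changes side without WT library 1, Tlr3 and Traf6 move with KO library 2, and Tank and Azi2 stay below 0 throughout.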

How the data were processed

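Samples were 3 KO and 3 WT bulk RNA-seq libraries, grouped by their labels. The authors deposited a single table of 55573 genes. It holds raw counts, whole in every library and so headed; aligner, counter and annotation: not given in the sources used here. FPKM values were deposited beside them, as were the authors' own group means of scaled counts (a signal), log2 fold changes and p-values, whose tool is not given. The submitters' processing notes name GRCm38 and mm10, yet 1546 of 52133 gene identifiers shared with GENCODE M21 of GRCm38, and 0 of the 8 members, have the same coordinates there. Coordinates are therefore given as the table has them, with the build unsettled.

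The deposited counts were fitted with edgeR 4.0.16 under R 4.3.3 (filterByExpr, TMM, quasi-likelihood F test, no covariate), with Benjamini-Hochberg adjustment over 14842 genes and a threshold of 0.05. SE follow from the F statistic, and 95% intervals use its degrees of freedom. DESeq2 1.42.0 and limma 3.58.1 were alternatives, beside other scalings and filters, a replicate block, a stricter threshold of 0.01, each library left out, and a per-library spline of 5 degrees of freedom on GC content. GC content came from the longest GENCODE M21 transcript. Scripts were tested on simulated counts. The members and lists were chosen with earlier results of these data known. Named were all members, list genes that passed (up to 4 per list and direction) and the 3 most abundant per list that did not, with Irf3, Mavs and Tbkbp1; others are said to be named afterwards. Likeness was sought among genes of at least 5 CPM.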

Additional observations from a re-analysis of the deposited data

How the results depend on the processing

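Matr3 stayed lower and called under each of the 18 alternatives, and Traf3, Ticam1, Tank and Azi2 kept their sign under all of them. The members called numbered 1 with DESeq2, 0 to 2 with 1 library left out and 3 without KO library 2 and WT library 1. Tank passed with DESeq2 (-0.34), without KO library 2 and without both libraries (-0.40), with a range of -0.38 to -0.26 over single libraries left out; Azi2 passed without KO library 2 and without both (-0.41; range -0.40 to -0.19); and Traf6 passed without both (-0.22). Tbk1 turned sign without both (-0.01) and with 1 library left out (-0.016 to 0.056), Ikbke without both (0.11) and with 1 left out (-0.59 to 0.12), and Tlr3 without both (-0.10; -0.10 to 0.37 over these fits). Traf6 turned with library totals alone (0.015), no filter (0.034), a mean of at least 1 CPM (0.0084), the GC trend removed (0.052) and 1 library left out (-0.15 to 0.090). The cause was not tested.

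Over all genes the calls numbered 721 (347 higher, 374 lower) at 0.01, 807 to 4295 with 1 library left out (393 to 2286 higher, 377 to 2009 lower) and 7556 (3750 and 3806) without both libraries. In the pathway lists these were 4 (4 and 0), 4 to 19 (4 to 14 and 0 to 5) and 36 (22 and 14). Lower calls there numbered 0 with no filter and with the replicate block, and 1 with limma on log2(FPKM + 1), log2(FPKM + 0.1) and the GC trend removed, against 2 of 13 as reported. Signs turned, among listed genes that had not passed, for Traf7 with the GC trend removed (-0.0060), for Tbkbp1 with no filter (0.023) and for Map3k7 with library totals alone (0.015), no filter (0.034), 1 CPM (0.0097), limma on log2(FPKM + 1) (0.0045) and log2(FPKM + 0.1) (0.0049) and the GC trend removed (0.065). With libraries left out, the range was -0.17 to 0.28 for Ddx58, -0.0026 to 0.085 for Traf7 and -0.025 to 0.23 for Tradd. It was -0.15 to 0.32 for Tbkbp1, -0.15 to 0.061 for Map3k7 and -0.093 to 0.25 for Irf3. Without both libraries Traf7 and Tradd did not pass in the edgeR fit. Irf3 (0.25, adjusted p = 0.00884) and Map3k7 (-0.15, 0.0206) passed in it with their sign kept. Ddx58 (-0.17, 0.0154) and Tbkbp1 (0.32, 0.000556) passed in it with their sign turned. Tab2 (adjusted p = 0.000381), Irak1 (0.00230), Ripk1 (0.00490), Ppp4c (0.000958), Mavs (0.0166) and Sting1 (0.0380) also passed in it, with their sign kept. The log2 differences of the 4 ratios moved by less than 1 SD in all 8 alternatives each, yet each turned sign with 1 library left out. The ranges were -0.52 to 0.090 for Ikbke to Tbk1 and -0.12 to 0.090 for Traf3 to Traf6. They were -0.057 to 0.095 for Azi2 to Tank and -0.24 to 0.20 for Tlr3 to Ticam1. The wider NF-kB pattern was in 3 members, against 1.

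The replicate numbers did not pair the libraries: deviations from the group means correlated at 0.17, -0.03 and -0.20 for numbers 1 to 3, and KO library 2 correlated best with WT library 3 (0.28). With the replicate number as a block 1599 genes and 0 members were called, and 9 listed genes were called higher, against 11 without it. Precision is limited by 3 libraries a group and, for Ikbke and Tlr3, by few counts. Counts per gene show neither isoforms nor protein or kinase activity.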
